A study of Mus musculus with 2 samples.

Results

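Closely paired peaks are peaks called for the MMH chimera whose summits lie 1500 bp or less from another summit of the same chromosome. They were found by that distance alone, on chromosomes 1 to 19, and made up 4101 of 49034 peaks there (8.36%). No height, enrichment or gene annotation entered the choice. The peaks come from chromatin immunoprecipitation followed by sequencing (ChIP-seq) in cultured mouse myoblasts of the established C2C12 line. All cells were of a single clone that carried a doxycycline-inducible, codon-altered transgene, MMH, kept under puromycin selection. MMH carries the DNA-binding homeodomains of mouse Dux and, after them, the C-terminus of human DUX4, so it is a driven chimera and not the native protein. The antisera library used the DUX4 antibodies MO488 and MO489, and the control library used an antibody that its sample label gives as HA and the series text as GFP. Both libraries came from cells given 2 ug/ml doxycycline for 18 h. Per the file headers, 26253175 antisera fragments and 23412256 control fragments remained after duplicate removal. There was 1 library per group, so no p-value is given: peaks of a single list are not replicates, and intervals cover counting error only. Peaks carry no expression values, so the myoblast label was not checked.

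Dux and DUX4 are transcription factors with a pair of homeodomains each. They switch on genes and repeat elements of the early embryo, and mouse Dux is known for its part in the 2-cell stage programme. Where sites of a factor lie close together, several molecules can occupy the same regulatory element. In ChIP-seq, such sites appear as separate peaks only if they are farther apart than the sheared DNA fragments can resolve.

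The known Dux site holds the 5-base motif TGATT and its reverse complement AATCA, facing each other across 1 base. RefSeq promoter windows of 300 bases were searched on both strands, and 28 windows of 26 genes held a paired summit, at 25 distinct summits. Printed below are the 6 highest of these summits that lie over 30 bp before a gene start, of which that of *Tas2r108* lacks the motif. *Gm15389* was added after its letters were seen, and *Zfyve26* and *Rad51b* because they share a pair. Each line gives bases around the summit that lie before the gene start, in the build GRCm38.p6, 5′ to 3′ on the strand of the gene. Capitals mark TGATT and AATCA.
4930597A21Rik, chr11:44586117-44586237, plus strand: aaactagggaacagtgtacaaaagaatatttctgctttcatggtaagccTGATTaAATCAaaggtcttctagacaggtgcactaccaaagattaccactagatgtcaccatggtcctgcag
Pramel32, chr4:88634235-88634355, minus strand: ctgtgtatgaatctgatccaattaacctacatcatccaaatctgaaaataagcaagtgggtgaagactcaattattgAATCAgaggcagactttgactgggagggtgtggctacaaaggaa
Pramel31, chr4:144357714-144357831, plus strand: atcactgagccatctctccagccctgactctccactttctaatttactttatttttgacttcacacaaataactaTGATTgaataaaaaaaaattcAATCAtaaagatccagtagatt
Tmprss11f, chr5:86632437-86632557, minus strand: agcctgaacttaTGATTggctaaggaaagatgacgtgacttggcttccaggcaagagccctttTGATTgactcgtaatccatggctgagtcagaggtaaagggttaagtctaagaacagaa
Laptm4a, chr12:8921057-8921172, plus strand: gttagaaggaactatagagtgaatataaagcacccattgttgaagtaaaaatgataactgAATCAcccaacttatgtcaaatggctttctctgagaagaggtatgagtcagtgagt
Tas2r108, chr6:40493342-40493420, plus strand: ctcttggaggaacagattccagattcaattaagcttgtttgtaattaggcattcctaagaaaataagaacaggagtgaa
Gm15389, chr1:107686834-107686954, plus strand: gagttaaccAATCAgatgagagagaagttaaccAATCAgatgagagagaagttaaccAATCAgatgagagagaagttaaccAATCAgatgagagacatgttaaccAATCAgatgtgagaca
Zfyve26, chr12:79296358-79296478, minus strand: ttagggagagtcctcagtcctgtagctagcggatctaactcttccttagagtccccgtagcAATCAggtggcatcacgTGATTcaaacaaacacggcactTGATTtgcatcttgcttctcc
Rad51b, chr12:79297154-79297274, plus strand: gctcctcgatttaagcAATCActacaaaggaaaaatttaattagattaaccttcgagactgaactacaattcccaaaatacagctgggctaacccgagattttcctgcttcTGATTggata

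The promoter of the lncRNA *4930597A21Rik* was the only window with a paired summit that held both motifs facing across 1 base, and this match lay 6 bp from the summit. That summit had a pileup, the number of antisera fragments over it, of 215 and a 43.1-fold enrichment over local background. Its partner, 1498 bp away and 1358 bp past the start, had a pileup of 35 and 7.17-fold enrichment. The strict match was rare, with 11 of 31396 promoter windows (0.0350%) holding it, and 7 of these 11 held a summit of any peak.

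The 5-base motif itself was common. It stood in 23 of the 28 windows with a paired summit (82.1%), in 274 of 345 windows with only another summit (79.4%) and in 11605 of all 31396 windows (37.0%). The windows with a paired summit but no motif were those of *A26c3*, *Tas2r108*, *Gm39233* and *Gm12415*. A motif centre lay within 25 bp of the summit for 15 of 25 paired summits (60%, exact binomial 95% interval 38.7 to 78.9%) and for 182 of 309 other summits (58.9%, 53.2 to 64.4%), each summit counted once. The letters overlap those of the CCAAT box, a common promoter element. The motif was part of such a box (CCAATCA or TGATTGG) in 12 of the 28 windows with a paired summit (42.9%), in 107 of 345 windows with only another summit (31.0%) and in 7.69% of all windows. These shares count windows, some of which hold the same summit, and their differences were not tested. In the promoter of the lncRNA *Gm15389* the printed bases held AATCA 5 times.

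*Zfyve26*, which encodes a protein of autophagy and endosomes, and *Rad51b*, which encodes a DNA-repair protein, lie head to head on chromosome 12, and each carried a summit of the same pair before its own start. Both summits had a pileup of 29 and 5.98-fold enrichment, 796 bp apart. At *Laptm4a*, which encodes a lysosomal membrane protein, the summit at −195 bp from the start had a pileup of 83, and its partner at 598 bp past the start had 36. At *Chac1*, which encodes an enzyme that degrades glutathione, the pileups were 38 at −150 bp from the start and 26 at 1039 bp past it. Across pairs with a summit within 1 kb of a gene start, the partner nearer to the start was the higher in 30 of 76 (39.5%, interval 28.4 to 51.4%), and within 5 kb in 119 of 238 (50.0%, 43.5 to 56.5%).

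The 4101 peaks formed 2109 adjacent pairs, that is, neighbours along a chromosome within the distance. Of these peaks, 3766 lay in 1883 isolated pairs, 306 in 102 runs of 3 peaks, 24 in 6 runs of 4 and 5 in a single run of 5. Spacing ran from 514 to 1500 bp with a median of 1105 bp (quartiles 910 and 1294 bp). Only 253 pairs (12.0%) were 800 bp or less apart, and 9 were 600 bp or less apart. From 800 to 1500 bp there was no favoured distance, with 246 to 284 pairs in each 100 bp step. Beyond the limit the count per 100 bp fell gradually, to 222 between 1500 and 2000 bp and 131 between 4000 and 5000 bp.

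**Figure D1:**
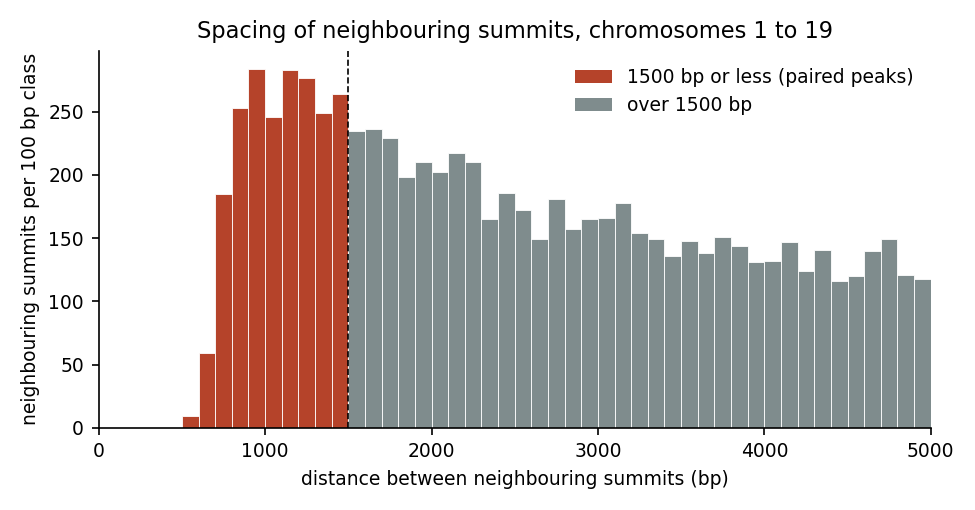
Number of neighbouring summits on chromosomes 1 to 19 per 100 bp class of distance (horizontal axis, bp), with pairs of 1500 bp or less in red and farther neighbours in grey. Counts climb from 9 in the class from 500 to 600 bp to a level of 246 to 284 between 800 and 1500 bp, then decline without a break at the limit.

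The smallest gap between paired regions, unlike the smallest summit spacing, lay near the fragment length. Per the file headers the fragment length was 287 bp, which is also the width of the narrowest called region. The gap between the facing edges of paired regions was at least 288 bp (median 602 bp, highest 1269 bp), and no neighbours in the list had a smaller gap. Whether the caller or the sheared DNA set this limit was not tested. The 5 closest pairs, at 514 to 573 bp, were all low, with pileups of 14 to 25. The closest, at 11485425 and 11485939 on chromosome 7, outside genes and over 83 kb from *Zscan4f*, had 23 and 22 fragments (3.97-fold and 4.59-fold).

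The limit of 1500 bp cut through a continuous distribution. At 1500 bp lay pairs with pileups of 248 and 77 in *Tle1* and of 80 and 18 in *Trpm6*. At 1499 bp lay 4 pairs, with 141 and 72 in *Dlg2*, 119 and 50 in *Ctnnd2*, 26 and 59 in *Tmem178b*, and 15 and 53 outside genes. The 4 just outside, 1501 or 1502 bp apart, had 107 and 45 outside genes, 38 and 56 in *Aopep*, 190 and 29 in *Clnk*, and 26 and 418 in *Samd3*.

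Closely paired peaks were about as high as the rest. The median pileup was 41 fragments in paired peaks (quartiles 28 and 74) and 41 in other peaks (29 and 70). Median fold enrichment was 8.18 in paired peaks and 8.10 in other peaks, and median width was 444 bp and 429 bp. Enrichment reached 20-fold or more in 635 of 4101 paired peaks (15.5%, interval 14.4 to 16.6%) and in 13.7% of other peaks, against a background of 13.8% over all peaks. Both ends of the height range held somewhat more of the paired peaks: a pileup of 100 or more occurred in 16.2% of paired and 14.5% of other peaks, and one of 25 or less in 19.6% and 16.5%. These differences were not tested.

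With all spacings pooled, the height of a partner was hardly related to that of the other. The sign of the relation differed between classes of spacing, given below. Over the 2109 pairs, Spearman's rho of the pileups was −0.0181 and Pearson's r of their log2 values was 0.0314, given as descriptions of pairs that share library, depth and local background. Spearman's rho between neighbours over 20 kb apart was 0.00257. The median absolute log2 ratio was 0.90 in pairs (quartiles 0.42 and 1.70), 0.94 at over 1500 to 5000 bp, 0.84 at over 5000 to 20000 bp and 0.83 beyond 20000 bp. Pileups were over 2-fold apart in 957 pairs (45.4%), where the background over all neighbouring summits was 42.7%. The 95% Poisson intervals of the 2 pileups did not overlap in 1066 pairs (50.5%, interval 48.4 to 52.7%), beside a background of 48.6%. A ratio over 4-fold occurred in 378 pairs (17.9%), in 18.0% of neighbours over 1500 to 5000 bp apart, in 12.8% of those over 20 kb apart and in 14.1% of all neighbours. The partner with the lower coordinate was the higher in 1058 pairs and the other in 1020, with 31 ties.

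**Figure D2:**
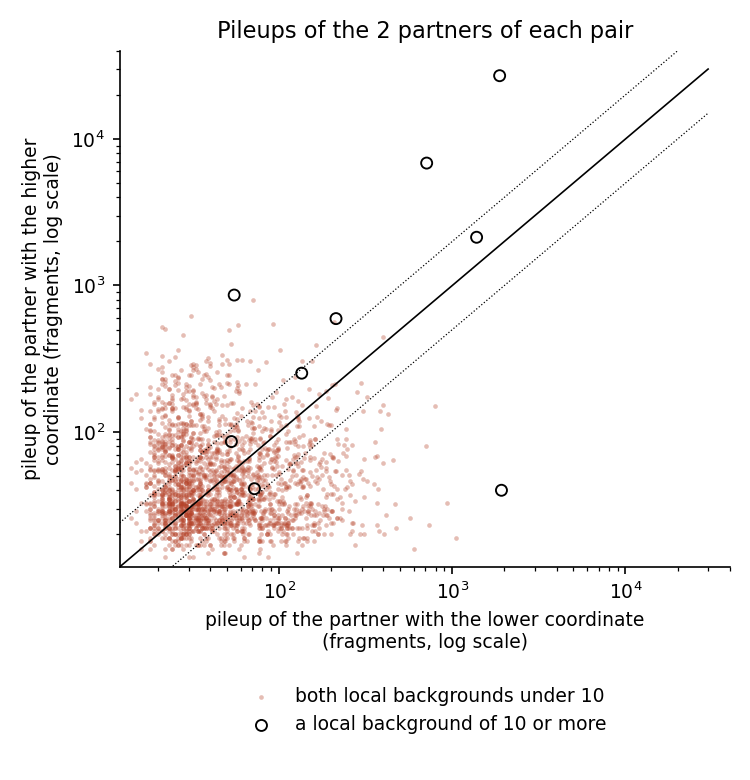
Pileup of the 2 partners of each of the 2109 adjacent pairs, by coordinate, on log scales. The solid line marks equal pileups and the dotted lines a 2-fold difference, and open circles mark the 9 pairs in which a local background reached 10 fragments. The cloud shows no slope (Spearman's rho −0.0181), and 1152 pairs (54.6%) lie between the dotted lines.

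**Figure D3:**
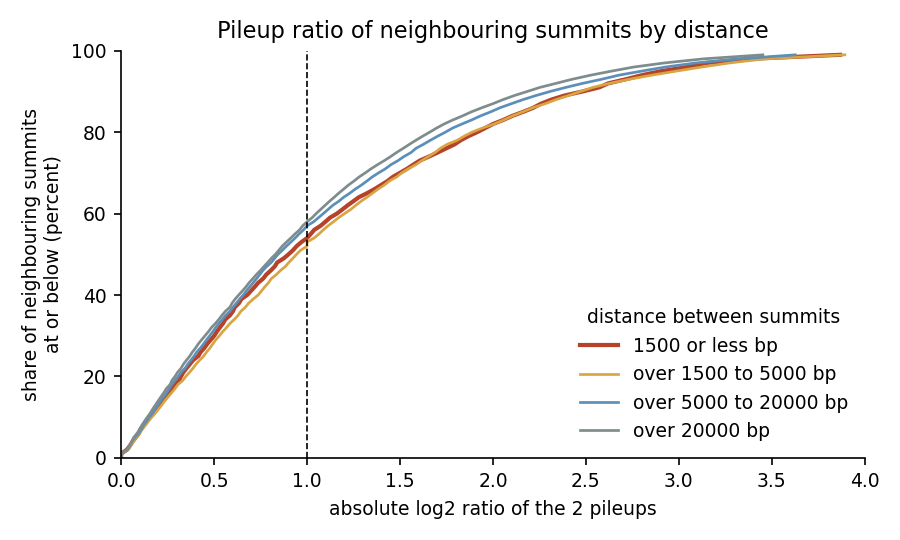
Cumulative share of neighbouring summits by the absolute log2 ratio of their pileups, for 4 classes of distance between summits. At an absolute log2 ratio of 1 (dashed line, a 2-fold difference) the curves stand at 54.6% for pairs, 53.1%, 57.1% and, beyond 20000 bp, 58.4%. The curve of the pairs lies below that of the farthest neighbours there.

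The closest pairs had the smallest ratios and also the lowest pileups. Between 500 and 750 bp, 94 of 141 pairs were within 2-fold (66.7%, interval 58.2 to 74.4%), with a median of 23 fragments in the lower and 39 in the higher partner. Between 1250 and 1500 bp, 337 of 658 were (51.2%, 47.3 to 55.1%), with medians of 30 and 71. Spearman's rho was −0.227 between 500 and 750 bp, −0.120 between 750 and 1000 bp, 0.0571 between 1000 and 1250 bp and −0.0559 between 1250 and 1500 bp. The part of the low heights in the closer ratios was not tested.

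Pairs of a tall and a short peak outnumbered pairs of 2 tall peaks, 149 to 59, as they did among neighbours over 20 kb apart, 1258 to 551. A partner of 100 or more fragments stood beside one of 25 or less in 149 pairs (7.06%, interval 6.01 to 8.24%), against 4.42% of neighbours over 20 kb apart. Both partners reached 100 in 59 pairs (2.80%, 2.14 to 3.59%), against 1.93%. Both stayed at 25 or less in 77 pairs (3.65%, 2.89 to 4.54%), against 2.84%. The middle class, both between those limits, held 877 pairs (41.6%) and 48.6% of the distant neighbours. These differences were not tested. The classes were not compared with neighbours over 1500 to 5000 bp apart, where ratios over 4-fold were about as common (18.0%) as in pairs (17.9%).

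The tallest pair with a low local background lay at 69428365 to 69430118 on chromosome 1, in intergenic DNA whose nearest coding gene was *Ikzf2*, a zinc-finger factor of lymphocytes, over 100 kb away. Its summits, 1080 bp apart, had 398 fragments (95% Poisson interval 359.9 to 439) and 446 (interval from 406), at 79.6-fold and 89.2-fold. The next lay inside *Trpm3*, which encodes a cation channel, with 297 and 217 fragments 1265 bp apart. In the lncRNA *Gm29824*, with *Tbx20*, a T-box factor of the heart, as the nearest coding gene, the pileups were 209 and 213. In *Adcy8*, an adenylyl cyclase gene, they were 208 and 561, the largest imbalance of the 10 tallest pairs at 2.70-fold. *Bzw1*, a regulator of translation start, held 201 and 210 fragments 1493 bp apart near its end, the closer summit 294 bp from it. *Abcg2*, which encodes a drug transporter, held 186 and 190. The other 4 lay outside genes. Their nearest coding genes were *Arid5b* at 13147 bp (321 and 173 fragments), *Ptgs2*, which encodes cyclooxygenase-2, at 27279 bp (192 and 171), *Cox7c*, of the respiratory chain, at 51447 bp (171 and 181) and *Mef2c*, a muscle transcription factor, at 116786 bp (280 and 186). In 9 of these 10 pairs the partners were within 2-fold, although choosing pairs by the lower partner favours like heights.

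The most unequal pairs joined some of the highest peaks to low ones of 16 to 33 fragments. At 83415355 to 83418115 on chromosome 7, a summit of 1057 fragments (211-fold, interval of the pileup 994 to 1123) stood 1209 bp from one of 19 (3.99-fold, interval from 11.4), a 55.6-fold difference. In *Fut9*, which encodes a fucosyltransferase, 600 fragments stood beside 16. The remaining 3 such pairs lay outside genes, with 737 beside 23 (nearest coding gene *Mettl15*, at 49408 bp), 937 beside 33 (*Nell1*, at 294585 bp) and 21 beside 521 (*Parp8*, at 184269 bp). Both local backgrounds were under 10 in each.

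Runs of 4 or more peaks all lay inside protein-coding genes. The single run of 5 lay in *Pdgfc*, which encodes a platelet-derived growth factor, and spanned 4223 bp between its outer summits. Its pileups, in order along chromosome 3, were 55, 27, 42, 85 and 70 (5.59-fold to 17.2-fold), and the gene held 8 peaks in all. *Macrod2*, a gene of nearly 2 Mb, held runs of 48, 46, 202 and 29 fragments and of 135, 22, 27 and 44. *Dlg2*, a synaptic scaffold gene, held 141, 72, 107 and 24, and *Gad2*, which encodes a glutamate decarboxylase, held 36, 27, 47 and 153. The last 2 runs of 4 were in *P3h2* (50, 20, 41 and 68) and *Lrriq1* (45, 58, 24 and 37), named after their values were seen. In each run the highest summit had over 2 times the pileup of the lowest.

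Paired and other summits had similar gene contexts, with shares a few percentage points apart at most. Paired summits fell within any RefSeq gene in 1887 of 4101 cases (46.0%, interval 44.5 to 47.6%) and other summits in 48.6% (48.2 to 49.1%). Inside protein-coding genes the shares were 37.3% (35.8 to 38.8%) in paired and 40.2% (39.7 to 40.6%) in other peaks. Within 5 kb of either end of a coding gene they were 11.0% and 12.5%, and within 20 kb 28.2% and 31.9%. Within 5 kb of a gene start, over the 18 chromosomes with promoter windows, the shares were 11.2% and 11.2%. Partners share their surroundings and are not independent cases, so these intervals are too narrow and the differences were not tested.

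**Figure D4:**
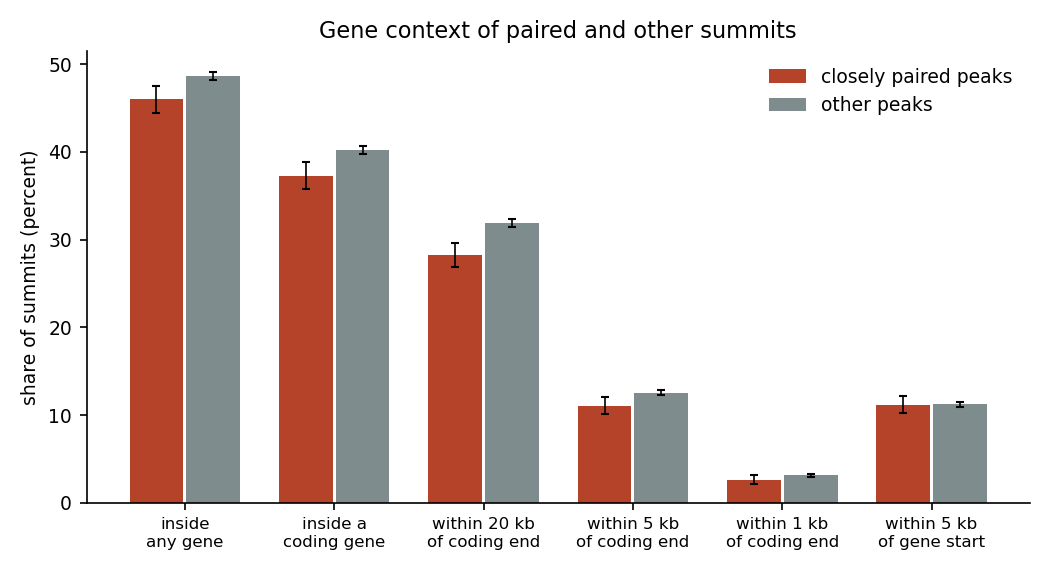
Share of summits (percent, bars from 0) in each gene context, for closely paired peaks (red) and other peaks (grey) of chromosomes 1 to 19, with exact binomial 95% intervals as error bars. The bars at gene starts leave out chromosome 18, whose promoters were not used. The paired peaks are lower for any gene (46.0% and 48.6%) and level with the others at gene starts (11.2% and 11.2%).

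Most pairs stayed on the same side of a gene boundary. Both summits lay in a common gene in 944 pairs (44.8%, interval 42.6 to 46.9%), of which 772 shared a coding gene, and both lay outside all genes in 1115 (52.9%). A boundary fell between them in the other pairs: in 47 only 1 summit was inside a gene, and in 3 the summits were in different genes. Among these were a pair that joined the lncRNA *Gm32355* (40 fragments) to the lncRNA *Gm32405* (46), and a pair that joined *Cbx5*, which encodes the heterochromatin protein HP1 alpha (87), to *Hnrnpa1*, which encodes an RNA-binding splicing factor (24). Neighbours over 1500 to 5000 bp apart shared a gene in 44.9% of cases. The median absolute log2 ratio of pileups was 0.92 in pairs within a gene and 0.86 in pairs outside genes.

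Genes that held whole pairs were long. The 624 coding genes with a pair had a median length of 150672 bp, against 57367 bp for the 6798 with any summit inside and 17491 bp for all 20661. A whole pair takes at least 2 summits inside the gene, so this choice by itself favours long genes. No comparison was made with genes that held 2 or more summits but no pair. In 105 of them there were 2 or more pairs. *Macrod2* held 6, and *Dlg2*, *Lrrc4c*, *Kcnip4*, *Ppfia2* and *Cdkal1* held 5 each, in genes of 463969 to 1997664 bp. *Pramel24*, of the Prame-like family, stood apart in holding 4 pairs within 9708 bp. Its 6 summits formed 2 runs of 3, with 25, 18 and 33 fragments and with 46, 19 and 34 fragments.

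Of the 25 coding genes with the tallest pairs inside or within 5 kb of an end, 22 held both summits within the gene. Their lower partners had 96 to 217 fragments and their higher partners 111 to 561. Within 2-fold were 18 of 25 pairs, beside 54.6% of all adjacent pairs, although choosing pairs by the lower partner favours like heights. Among them were *Sema6d*, a semaphorin (384 and 138), *Cntnap2*, a neurexin relative (188 and 113), *Negr1*, a neuronal adhesion protein (110 and 169), and *Dsc3*, a desmosomal cadherin with its pair outside the gene (109 and 111). *Tln2* (136 and 152) encodes the cytoskeletal protein talin 2. *Plcl1* (397 and 152), *Grb14* (108 and 138), *Pde1c* (100 and 117, outside the gene) and *Dhh*, the desert hedgehog ligand (175 and 119), belong to signalling. *Mthfd2l* (123 and 238) and *Prps1l1* (154 and 305, outside the gene) are genes of folate and nucleotide metabolism, and *Cers6* (109 and 126) encodes a ceramide synthase. *Hecw2* (213 and 142) encodes a ubiquitin ligase, *Zfp608* (136 and 306) a zinc-finger protein, *Cep170* (242 and 104) a centrosomal protein and *Pdcl* (112 and 102) a phosducin-like protein. *Vwc2l*, *Ggnbp2*, *Psd3* and *Ism1* were also among the 25, as were *Trpm3*, *Adcy8*, *Bzw1* and *Abcg2*.

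Pairs stood beside a number of genes of the 2-cell programme. A pair had a summit within 5 kb of an end for 18 of 81 members (22.2%, interval 13.7 to 32.8%), where 271 of 20661 coding genes did (1.31%). Any peak lay there for 52 of the 81 (64.2%) and for 28.1% of coding genes, so that among genes with a peak the share with a pair was 34.6% in the list and 4.67% in coding genes. The difference was not tested, and the list was chosen with earlier results of these data known. The 18 genes had 23 separate pairs on 4 chromosomes, in 15 blocks of 200 kb, but most are copies within families. *Pramel24* had 4 of these pairs, *Pramel5* and *Tdpoz3* had 2 each, and the other genes 1 each. Near-identical copies may share reads, so the values of single copies are uncertain; the mapping settings were not given in the sources used here.

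Among the families, 7 of 46 Prame-like, 4 of 9 *Zscan4*, 4 of 6 Usp17-like and 1 of 8 *Tdpoz* members had a pair, and the remaining 2 were single genes. *Tmem92* had 82 fragments inside and 127 just outside the gene, 1343 bp apart. *Zfp352*, a zinc-finger gene of the 2-cell embryo, had 174 before the gene and 58 inside, 1084 bp apart. At *Usp17le*, of a deubiquitinase family, 55 stood 1285 bp from 860, and the taller summit had a local background of 10.7 fragments. The pair of *Usp17la* had 232 and 25, and that of *Usp17lb* 21 and 230, 1276 and 1327 bp apart. *Pramel32* had 212 and 54, and *Pramel31* 173 and 25, both with the tall summit in the promoter window shown above. The *Zscan4* pairs were low and lay inside the gene: 32 and 47 in *Zscan4c*, 32 and 32 in *Zscan4e*, 25 and 30 in *Zscan4b*, and 20 and 25 in *Zscan4a*, of which *Zscan4e* and *Zscan4a* are annotated as pseudogenes. Their spacing differed between the copies, at 963, 613, 589 and 719 bp. *Tdpoz3* had 2 pairs with a summit within 5 kb, with 53 and 86 fragments over raised backgrounds of 14.6 and 9.53, and with 1922 and 40 over 9.06 and 12.3. Apart from *Tmem92*, *Zfp352*, *Usp17le* and *Pramel32*, these genes were named after their values were seen.

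In the other lists the share of genes with a pair ran from 0 to 12.5%, beside 1.31% of coding genes, and none of these differences was tested. Skeletal muscle had 1 of 39 (2.56%; *Six4*, a homeobox regulator of muscle, 42 and 45 fragments), cell death and p53 had 2 of 16 (12.5%, interval 1.55 to 38.3%; *Fas*, the death receptor, 72 and 107, and *Casp8*, the caspase it activates, 45 and 112), and Hox had 2 of 39 (5.13%), a single pair of 35 and 35 in the lncRNA *Gm38462* and within 5 kb of *Hoxd3* and *Hoxd8*. *Obox* homeobox genes and pseudogenes had 2 of 54 (3.70%), near *Obox5* (88 and 25) and *Obox4-ps2* (40 and 62), although 53.7% had a peak. Ribosomal protein genes had 1 of 79 (1.27%; *Rpl24*, with a pair of 31 and 31 inside its neighbour *Zbtb11*), olfactory receptors 13 of 1420 (0.915%) and vomeronasal receptors 3 of 357 (0.840%). By the lower partner, the tallest of these were within 5 kb of *Olfr1275*, but inside its neighbour *A26c3* (48 and 93), and within 5 kb of *Vmn2r57*, but inside the lncRNA *Gm17102* (54 and 157). Pluripotency had 0 of 19 genes, which allows a share of up to 17.6% (exact interval). Histone genes had 0 of 74, up to 4.86%, although 59.5% of them had a peak within 5 kb. Neighbouring genes can share a peak or pair, as *Hoxd3* and *Hoxd8* did, so genes of a list are not independent cases. The intervals of lists with clustered genes can therefore be too narrow.

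The share of paired peaks differed somewhat between chromosomes. It ran from 6.94% on chromosome 18 (interval 5.79 to 8.23%) to 9.73% on chromosome 10 (8.69 to 10.8%), around 8.36% for all. A paired peak makes its partner paired too, so peaks are not independent cases and these intervals are too narrow. As printed, those of chromosomes 18 and 10, picked as the lowest and highest, do not overlap. The intervals of chromosomes 9 (6.14 to 8.29%) and 12 (8.42 to 10.8%), too narrow in the same way, also left out 8.36%. The differences between chromosomes were not tested. Chromosomes 4 and 15, where 43.1% and 81.3% of peaks had a local background above its floor of 4.01 fragments, had 9.19% and 9.35%. Background above the floor was found at 21.5% of paired and 22.2% of other peaks.

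**Figure D5:**
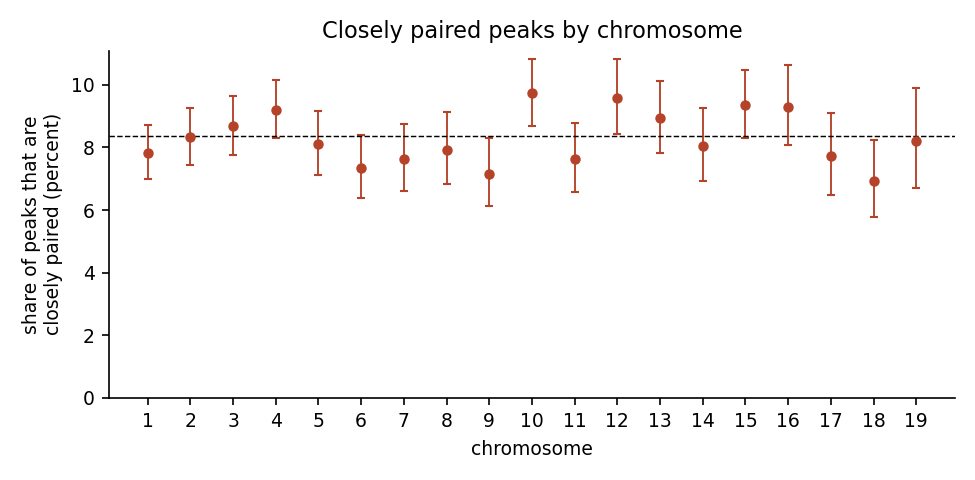
Share of the peaks of each chromosome that are closely paired (percent), with exact binomial 95% intervals, the dashed line marking 8.36% over chromosomes 1 to 19. Points run from 6.94% on chromosome 18 to 9.73% on chromosome 10. The intervals treat peaks as independent cases and are too narrow, since partners are paired together.

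A few pairs sat on very high control signal. The local background reached 10 fragments at 13 of 4101 paired peaks (0.317%) and 0.216% of other peaks, in 9 pairs. At 3022120 to 3026057 on chromosome 9 the partners had 1876 and 27027 fragments over backgrounds of 856 and 5204, only 2.19-fold and 5.19-fold. At 19415750 to 19419302 on chromosome 14, 711 and 6845 fragments gave 3.53-fold and 3.11-fold, and at 39843120 to 39844790 on chromosome 17, 213 and 594 gave 1.70-fold and 4.28-fold. Within *Sfi1* on chromosome 11, 1381 and 2133 fragments gave 15.4-fold and 20.9-fold over backgrounds of 88.6 and 101. The part of the control signal in these pileups was not tested. The *Tdpoz* region of chromosome 3 held 2 of the 9 pairs, among them 1922 fragments (191-fold) beside 40 (3.07-fold).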

How the data were processed

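The antisera and control ChIP-seq libraries of induced MMH cells were grouped by their antibody label. The submitters' processing notes name BWA, MACS2 and mm10 as build. Peaks were called by the authors with MACS 2.1.0.20151222, per the file headers, on paired-end fragments, at a q-value threshold of 0.01 and at most 1 fragment per position. Alignment filters were not given in the sources used here. The deposited pileup is a signal, fragments over the summit, the authors' p-value and q-value are given as −log10, and the deposited fold enrichment is a ratio with 1 added to both terms. The local background was recovered from pileup and fold, and a recomputed Poisson −log10 p matched the deposited one within 1% for all 47896 peaks with a finite value.

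Adjacent pairs, runs, pileup ratios and gene context were computed with Python 3.11.15, numpy 2.4.6, pandas 2.3.3 and scipy 1.17.1, and tested on simulated peaks. Genes came from RefSeq for GRCm38.p6, which shares mm10 coordinates (20661 coding genes on chromosomes 1 to 19), and 31396 promoter windows reach from 250 bases before to 50 after a gene start. Chromosome 18 promoters were not used here, and sequence was searched only in promoter windows, since no genome was used. Intervals are exact, at 95%. The pairs, runs and genes named are the 10 tallest and 5 most unequal pairs with both backgrounds under 10 (the tallest 1 per 200 kb), the 5 closest pairs, the 5 longest runs, the 25 genes with the tallest pairs and up to 4 genes per list. The members and lists were chosen with earlier results of these data known. Some genes that meet these rules are not reported here.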

Additional observations from a re-analysis of the deposited data

How the results depend on the processing

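With 1 library per group, no replicate could be left out, and depth limits low pileups to wide Poisson intervals. No paired analysis was possible because each group has 1 library. Of the alternatives, 50 left a value within its interval or, for counts, within 1.5 times, and 22 did not. A distance of 1000 bp gave 1564 paired peaks in 790 pairs, a median spacing of 859.5 bp, a median absolute log2 ratio of 0.83, 57.1% of pairs within 2-fold, a Spearman's rho of −0.0803 and 12.7% of summits within 5 kb of a coding gene end. A distance of 2000 bp gave 3217 pairs with a median spacing of 1306 bp. Keeping peaks with −log10 q of 10 or more gave 2694 paired peaks, 1374 pairs, a spacing of 1122 bp, a log2 ratio of 0.78, 59.5% within 2-fold and a rho of 0.0408. An edge gap of 1000 bp gave 52.2% within 2-fold, and subtracting the background gave 49.8% and a log2 ratio of 1.00. Coding genes alone gave 37.3% of summits inside a gene and 36.6% of pairs in a common gene. Gene ends within 1 kb and 20 kb gave 2.63% and 28.2%. The smaller or larger counts follow from the construction of these settings. So do the directions of the shifts in median spacing at distances of 1000 and 2000 bp. The same holds for the lower shares with coding genes alone and for the shares at gene ends within 1 kb and 20 kb. The cause of the other shifts was not tested.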

Other observations

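The X chromosome, outside the chromosomes described, held 194 closely paired peaks of 2320 (8.36%) in 100 pairs. Their median spacing was 1101 bp, their median absolute log2 pileup ratio 0.77 and Spearman's rho of the partners' pileups 0.07.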
